A study of Mus musculus with 8 samples.

Results

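CD-numbered antigens are cell surface molecules that immunologists named by the antibodies that bind them, and many define blood cell types in flow cytometry. Their genes were described here in sorted mouse granulocyte-macrophage progenitors (GMP), from which the marrow makes its neutrophils and monocytes. The members are the protein-coding genes whose mouse symbol is Cd, a number and at most 1 further letter. They number 62 of the 23131 genes in the deposited table and of its 14138 protein-coding genes.

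The study profiled GMP from 4 RH2hKO mice, in which Vav-Cre deletes floxed Rnaseh2b (Rnaseh2b fl/fl, Vav-Cre+), and from 4 RH2hWT littermates that carry the same floxed alleles without Cre. All mice were C57BL/6, and the labels give no age. Vav-Cre is active throughout the blood-forming system, so the deletion is not limited to GMP. The cells were sorted as lineage-negative cells with Kit, CD16/32 and CD34 on their surface, and each library held the polyadenylated RNA of 1 mouse. The libraries are called RH2hKO replicates 5 to 8 and RH2hWT replicates 1 to 4. Values are the authors' read counts per gene after scaling of each library by a single factor, called normalised counts. They measure messenger RNA, not the protein on the cell surface.

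Rnaseh2b encodes a subunit of RNase H2, an enzyme that removes ribonucleotides from DNA and cuts RNA bound to DNA. CD antigens have many functions: tetraspanins organise other proteins in membranes, co-stimulatory molecules tune contact with lymphocytes, adhesion receptors bind cells to their surroundings, and scavenger receptors take up particles and lipids. GMP are known to carry CD34 together with low-affinity Fc receptors (CD16/32) and Kit.

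Between 28352720 and 45655518 reads were assigned to genes per library. Rnaseh2b averaged 104 ± 23.2 normalised counts in RH2hKO and 1804 ± 669 in RH2hWT (SD, n = 4 each), and no library went against its label. Across all genes RH2hKO replicate 8 (-49.7) and RH2hWT replicate 1 (34.6) stood apart on the second principal component, on which the other libraries lay between -13.96 and 10.95. For the antigens described, calls that were gained or lost without either library are given. The 8 gate and granule markers of GMP were present in every library, with a summed level of 1115997 to 1173490 in RH2hKO and 1235038 to 1339438 in RH2hWT. Every RH2hKO sum was below every RH2hWT sum, but none of the 8 genes passed the test. Most of the sum was Mpo, at 739400 ± 40700 in RH2hKO and 806200 ± 35300 in RH2hWT. Log2 fold changes were -0.13 for Mpo, -0.35 for Elane, -0.26 for Ctsg and -0.28 for Prtn3. For the gate genes they were 0.34 for Cd34, 0.07 for Kit, -0.34 for Fcgr3 and -0.02 for Fcgr2b. Some markers of T cells (Cd3d, Cd247, Trac), B cells (Cd79a, Ebf1) and dendritic cells (Siglech, Zbtb46) stayed below 10 normalised counts in every library. Other genes of those lists were expressed: Nkg7 averaged 10420 ± 1820 in RH2hKO and 12700 ± 2100 in RH2hWT, Cd79b 1137 ± 103 in RH2hKO and 1065 ± 113 in RH2hWT, and Irf8 18020 ± 3800 in RH2hKO and 19730 ± 2540 in RH2hWT (SD, n = 4 each). Ighm of the B cell list averaged 5945 ± 1640 in RH2hKO and 6773 ± 610 in RH2hWT, and Igkc 36.6 ± 43.1 in RH2hKO and 129 ± 44.7 in RH2hWT. Lck of the T and NK cell list averaged 61.7 ± 11.5 in RH2hKO and 42.55 ± 20.2 in RH2hWT. Of the dendritic cell list, Tcf4 averaged 2066 ± 141 in RH2hKO and 1804 ± 187 in RH2hWT, and H2-Ab1 711 ± 269 in RH2hKO and 577.7 ± 64.5 in RH2hWT. Flt3 and Bst2 of the dendritic cell list rose in RH2hKO.

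Of the CD antigens, 5 rose in RH2hKO and none fell. Cd80, a ligand of CD28 and CTLA-4 on T cells, rose 5.71-fold, and Cd81, a widely expressed tetraspanin, rose 1.63-fold. Cd33, a sialic acid-binding lectin of myeloid cells, rose 1.85-fold. Cd27, a TNF receptor family member of lymphocytes and early progenitors, and Cd68, a lysosomal glycoprotein of phagocytes, each rose 1.40-fold. Only the 42 members with a mean of at least 10 normalised counts were tested, by limma on log2(normalised count + 1) with Benjamini-Hochberg adjustment over all 16688 genes tested and a threshold of 0.05, so that 5 of 42 (11.9%) were called. Over all genes 1.40% were called, 1.19% higher and 0.210% lower. The members are all protein-coding. With protein-coding genes alone, 198 of 11886 genes were called higher and 37 lower, and the same 5 members were called. The unadjusted p was below 0.05 for 11 of the 42, of which 10 were higher and 1 lower, a share of 26.2% against 13.2% of all genes. The 10 include Cd38, which reached the filter only through the RH2hKO libraries. On the recovered reads edgeR called the same 5 members higher, where it called 210 of 16688 genes higher and 31 lower. DESeq2 called 8 members higher, Cd38 among them, where it called 420 genes higher and 138 lower. Both called 0 members lower. In bulk samples, fewer cells of a type and less RNA per cell cannot be told apart.

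The median log2 fold change of the 42 was 0.08, against -0.01 over all genes tested. It was above 0 for 26 members and below 0 for 16, and for 24 it lay within 0.25 of 0. All 4 RH2hKO libraries were above all 4 RH2hWT libraries for 7 members (16.7% of the 42), the 5 that rose with Cd38 and Cd6, and below them for 0. Of these, Cd38 reached the filter only through its RH2hKO values, with a mean of 19.6 in RH2hKO and 1.175 in RH2hWT. Groups lay apart in this way for 7.41% of all genes tested, 3.99% above and 3.42% below. The remaining 20 members were not tested, with means of 0.725 to 9.3 normalised counts and no value above 17.5 in any library.

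**Figure D1:**
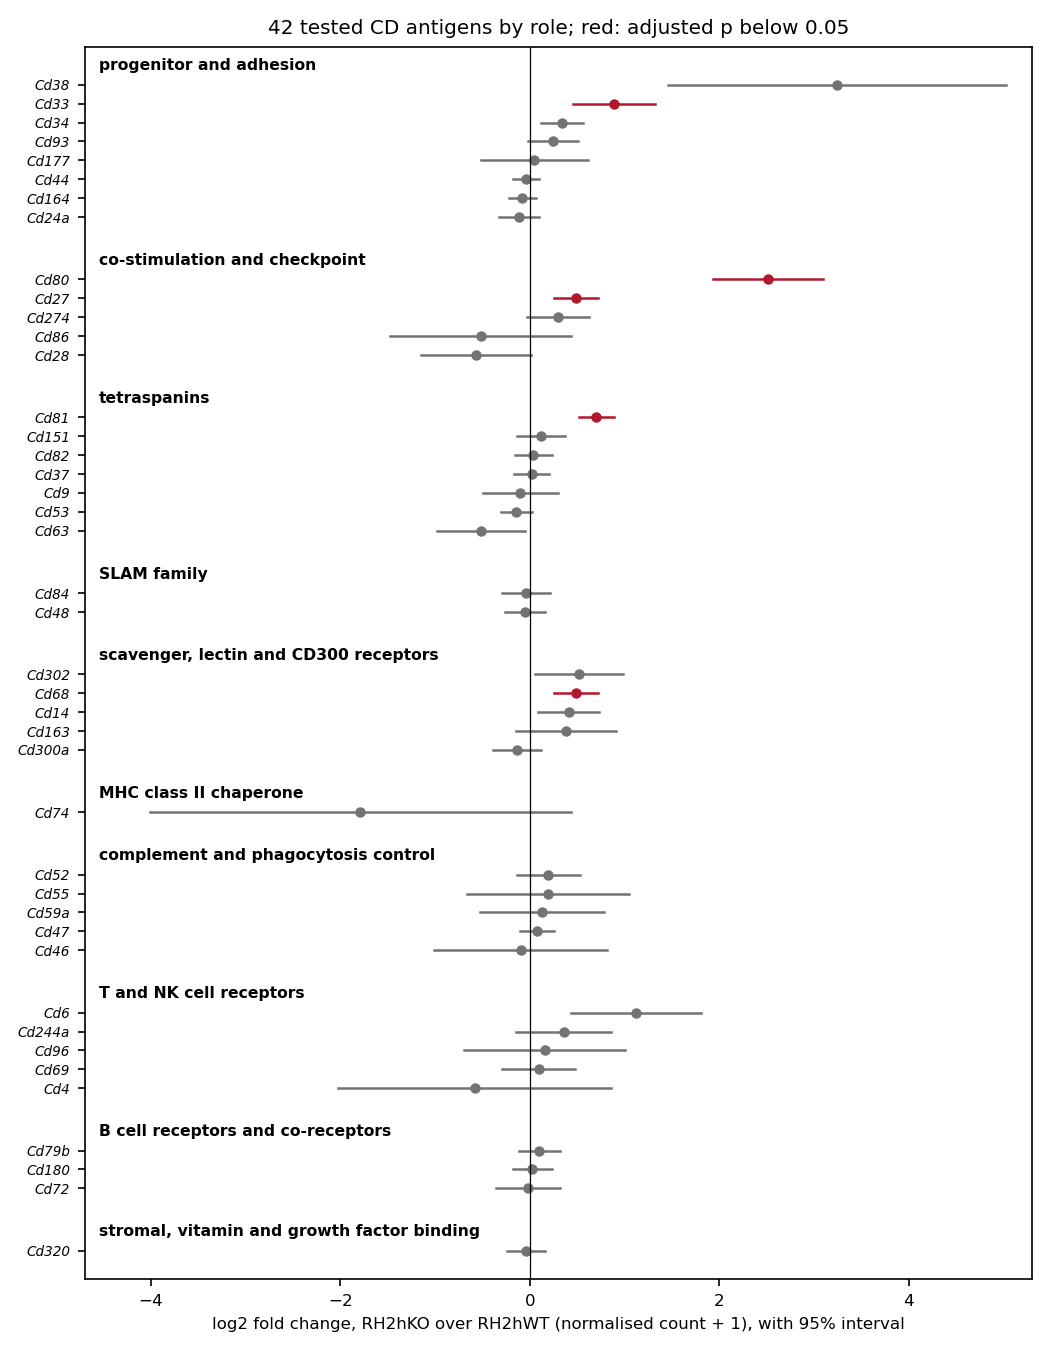
Log2 fold changes of the 42 tested CD antigens, RH2hKO over RH2hWT, on the scale of log2(normalised count + 1), with 95% intervals and grouped by role. Red points are the 5 antigens with an adjusted p below 0.05, all of them right of 0, and most others lie close to 0.

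Upstream sequence is shown for the antigens with the lowest adjusted p, Cd80 and Cd81, and for Cd68, the one risen antigen with a match to the p53 half-site. Each is the 250 bases before the RefSeq start on the gene's own strand, 5′ to 3′, from RefSeq on GRCm38.p6, the assembly of the mm10 coordinates in the deposited table. Cd80 (ENSMUSG00000075122) lies on chromosome 16 from 38455561 to 38496335, Cd81 (ENSMUSG00000037706) on chromosome 7 from 143052739 to 143067934 and Cd68 (ENSMUSG00000018774) on chromosome 11 from 69664213 to 69666153. The Cd80 window is chr16:38458683-38458932 on the plus strand and lies within the deposited gene bounds, which begin further upstream, but in none of its annotated exons. The Cd81 window is chr7:143052500-143052749 on the plus strand and its last 11 bases lie in the deposited gene. The Cd68 window is chr11:69666171-69666420 on the minus strand, wholly outside the gene. Capitals mark matches to the motifs searched.
Cd80: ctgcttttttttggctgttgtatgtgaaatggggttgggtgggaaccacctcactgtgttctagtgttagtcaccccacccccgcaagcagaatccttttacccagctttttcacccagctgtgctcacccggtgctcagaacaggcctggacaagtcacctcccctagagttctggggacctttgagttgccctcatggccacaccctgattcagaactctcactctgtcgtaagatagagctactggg
Cd81: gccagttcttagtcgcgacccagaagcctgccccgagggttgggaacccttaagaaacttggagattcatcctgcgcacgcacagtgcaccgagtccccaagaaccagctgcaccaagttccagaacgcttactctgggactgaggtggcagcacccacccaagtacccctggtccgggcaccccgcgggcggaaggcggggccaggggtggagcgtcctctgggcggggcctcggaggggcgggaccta
Cd68: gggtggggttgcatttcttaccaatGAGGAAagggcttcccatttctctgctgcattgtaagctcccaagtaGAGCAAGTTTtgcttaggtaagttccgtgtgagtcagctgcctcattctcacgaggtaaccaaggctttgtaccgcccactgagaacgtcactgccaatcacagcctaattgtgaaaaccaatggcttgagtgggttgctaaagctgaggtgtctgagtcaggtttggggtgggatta

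The motifs searched, on both strands, were the p53 half-site, GAAANNGAAA, GAGGAA and TATAAA. Of 32851 promoters in the table, 7.1% held a p53 half-site, 3.0% GAAANNGAAA, 23.3% GAGGAA and 12.4% TATAAA. Promoters were found for 47 of the 62 members, 55 in all, of which 5, 2, 20 and 4 held those motifs in the same order. Among the 5 promoters of risen antigens, Cd68 held the p53 half-site and, at another place, GAGGAA, Cd33 held GAGGAA, and neither of the other motifs was found. A match is a stretch of letters and not a measured binding site.

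Among co-stimulatory and checkpoint molecules, 2 of 5 tested members rose, Cd80 and Cd27, and none fell. Cd80 stood at 135.0, 93.4, 134.1 and 132.8 normalised counts in RH2hKO replicates 5 to 8, against 19.6, 24.6, 23.7 and 15.8 in RH2hWT replicates 1 to 4. The lowest RH2hKO value was far above the highest RH2hWT value, with 520 reads in the RH2hKO libraries together and 87 in the RH2hWT libraries. Its log2 fold change was 2.51 ± 0.27 (SE; limma adjusted p = 0.000105).

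Cd27 stood at 1999.5, 2015.7, 1930.4 and 1772.8 in RH2hKO replicates 5 to 8, against 1592.7, 1520.8, 1316.7 and 1115.6 in RH2hWT replicates 1 to 4. The groups did not overlap, but the gap between them was smaller than the spread within RH2hWT (log2 fold change 0.49 ± 0.11, SE; limma adjusted p = 0.0378). The call of Cd27 was lost without RH2hKO replicate 5, 6 or 7 or RH2hWT replicate 2, 3 or 4 (limma adjusted p 0.0567 to 0.13), and with no intensity trend in the variance (0.187). Cd27 overlaps a microRNA gene, Mir8113, on the same strand.

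Cd274, the inhibitory ligand PD-L1, averaged 323 ± 51.7 in RH2hKO and 261 ± 29.3 in RH2hWT (SD, n = 4 each; log2 fold change 0.30 ± 0.15, SE; limma adjusted p = 0.425). Cd86, the other ligand of CD28, did not pass the test. It had 14.4, 14.6, 30.6 and 52.9 normalised counts in RH2hKO replicates 5 to 8, against 26.6, 57.6, 28.7 and 35.2 in RH2hWT replicates 1 to 4, and the groups overlapped (log2 fold change -0.52 ± 0.44, SE; limma adjusted p = 0.669). Cd28 itself averaged 92.3 ± 32.9 in RH2hKO and 132 ± 28.1 in RH2hWT (limma adjusted p = 0.388). Cd40, Cd83 and Cd276, further molecules of antigen-presenting cells, were too low to test.

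**Figure D2:**
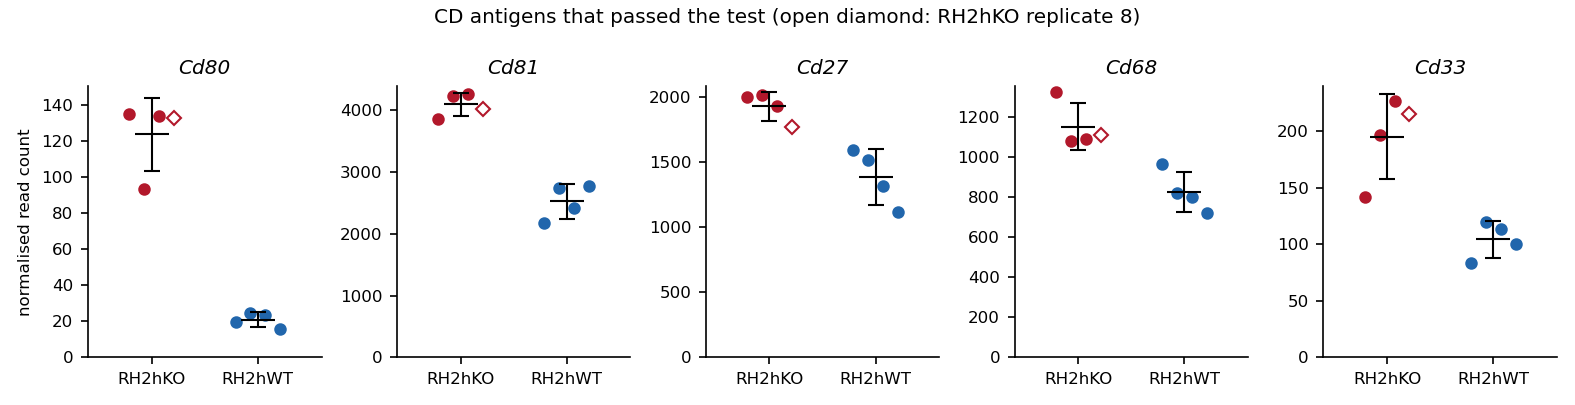
Normalised counts per library of the 5 CD antigens that rose, with RH2hKO left and RH2hWT right and bars for mean ± SD (n = 4 each). Every RH2hKO point lies above every RH2hWT point, by the widest relative margin for Cd80, and the open diamond is RH2hKO replicate 8.

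All 7 tetraspanins were tested, and 1 rose. Cd81 stood at 3854.1, 4232.9, 4258.1 and 4021.9 normalised counts in RH2hKO replicates 5 to 8, against 2170.4, 2736.4, 2416.0 and 2774.1 in RH2hWT replicates 1 to 4. RH2hKO libraries lay close together and well above all RH2hWT libraries (log2 fold change 0.70 ± 0.09, SE; limma adjusted p = 0.000367). A transcript on the opposite strand, R74862, overlaps Cd81 over 104 bases and averaged 19.9 normalised counts. Cd80 and Cd81 passed the test under all 21 alternatives tried.

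Cd53, the tetraspanin of white blood cells with the highest level per kilobase of all members, averaged 7484 ± 560 normalised counts in RH2hKO and 8259 ± 546 in RH2hWT (SD, n = 4 each; log2 fold change -0.14 ± 0.08, SE; limma adjusted p = 0.445). Cd37, a tetraspanin of lymphocytes and myeloid cells, averaged 3861 ± 304 in RH2hKO and 3820 ± 381 in RH2hWT (limma adjusted p = 0.957). The log2 fold changes of Cd9, Cd82 and Cd151 lay between -0.10 and 0.11, and those groups overlapped. Cd63, a tetraspanin of granule and lysosome membranes, had 2031.0, 3179.8, 2261.6 and 4677.3 in RH2hKO replicates 5 to 8, against 2957.3, 4361.1, 4511.0 and 4890.3 in RH2hWT replicates 1 to 4. The groups overlapped through RH2hKO replicate 8 and RH2hWT replicate 1 (log2 fold change -0.51 ± 0.22, SE; limma adjusted p = 0.32, and 0.0251 with array weights). A processed copy, Cd63-ps, averaged 5238 normalised counts, above Cd63 itself, so the split of reads between the pair is uncertain. Summed, Cd63 and Cd63-ps averaged 7338 ± 2737 in RH2hKO and 10356 ± 2109 in RH2hWT (SD, n = 4 each).

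Of 8 tested progenitor and adhesion antigens 1 rose, Cd33. Its values were 142.2, 196.6, 226.8 and 215.6 normalised counts in RH2hKO replicates 5 to 8, against 83.9, 120.0, 113.7 and 100.1 in RH2hWT replicates 1 to 4. RH2hKO replicate 5 was the lowest of its group and still above every RH2hWT library (log2 fold change 0.89 ± 0.20, SE; limma adjusted p = 0.0423). The call of Cd33 was lost without RH2hKO replicate 6, 7 or 8 or any 1 RH2hWT library (limma adjusted p 0.0518 to 0.176). It was also lost with no filter on the mean (0.0559), with quantile normalisation (0.0664) and with no intensity trend (0.107).

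Cd34, a sialomucin of blood progenitors and one of the antigens used in the sort, stood at 15181.5, 14762.0, 16093.7 and 11388.2 in RH2hKO replicates 5 to 8, against 12846.8, 11519.0, 10654.8 and 10182.7 in RH2hWT replicates 1 to 4. RH2hKO replicates 5 to 7 were above all RH2hWT libraries and replicate 8 lay among them (log2 fold change 0.34 ± 0.10, SE; limma adjusted p = 0.162). DESeq2 on the recovered reads called Cd34 higher (adjusted p = 0.0465), as did limma with array weights (0.00713). The sort required CD34 protein on the cells of both groups. Cd93, a lectin-like receptor of early progenitors, had 20507.6, 17700.3, 21706.4 and 13117.7 in RH2hKO replicates 5 to 8, against 16299.5, 14967.6, 14533.7 and 14927.6 in RH2hWT replicates 1 to 4. Replicate 8 was here below every RH2hWT library (log2 fold change 0.24 ± 0.12, SE; limma adjusted p = 0.429).

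Cd38, an ectoenzyme that consumes NAD, was near the limit of detection. It had 12.6, 21.4, 4.9 and 39.5 normalised counts in RH2hKO replicates 5 to 8, against 0.0, 3.8, 0.0 and 0.9 in RH2hWT replicates 1 to 4. All RH2hKO values were above all RH2hWT values, with 82 reads in RH2hKO and 5 in RH2hWT, but Cd38 reached the filter only through the RH2hKO libraries and did not pass the test (limma adjusted p = 0.0832). Its fitted log2 fold change was 3.24 ± 0.83 (SE) with a pseudocount of 1, 3.83 with 0.5 and 1.83 with 5. DESeq2 on the recovered reads called Cd38 (adjusted p = 0.00537), and so did limma with no filter (0.0452) and with array weights (0.0496).

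Cd44, Cd164 and Cd24a, further abundant antigens of this group, did not pass the test. Cd44, the hyaluronan receptor, averaged 9241 ± 450 normalised counts in RH2hKO and 9514 ± 252 in RH2hWT (SD, n = 4 each; log2 fold change -0.04, 95% interval -0.18 to 0.09). Cd164, a sialomucin, averaged 11076 ± 399 in RH2hKO and 11707 ± 689 in RH2hWT (95% interval of the log2 fold change -0.22 to 0.06). Cd24a, the heat stable antigen, averaged 8210 ± 1189 in RH2hKO and 8837 ± 521 in RH2hWT (95% interval -0.32 to 0.09). Cd177, a surface protein of neutrophils, averaged 238 ± 63.1 in RH2hKO and 235 ± 74.7 in RH2hWT.

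Scavenger receptors, lectins and CD300 receptors counted 11 members, of which 5 were tested and 1 rose. Cd68 stood at 1327.0, 1082.3, 1093.4 and 1112.5 normalised counts in RH2hKO replicates 5 to 8, against 964.9, 820.8, 803.3 and 719.9 in RH2hWT replicates 1 to 4. The groups did not overlap, and RH2hKO replicate 5 was the highest library (log2 fold change 0.48 ± 0.11, SE; limma adjusted p = 0.0414). The call of Cd68 was lost without RH2hKO replicate 5, 6 or 7 or RH2hWT replicate 2, 3 or 4 (limma adjusted p 0.0812 to 0.176), and with no intensity trend (0.167). The summed level of the 6 monocyte and macrophage markers, Cd68 among them, was 73626 to 89795 in RH2hKO and 79357 to 86961 in RH2hWT. Most of that sum was Ly6c2, at 51010 ± 3700 in RH2hKO and 56590 ± 1910 in RH2hWT (SD, n = 4 each), and Ccr2 of the list rose (limma adjusted p = 0.0274).

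Cd14, a co-receptor for bacterial lipopolysaccharide, stood at 1045.2, 979.1, 906.0 and 618.8 in RH2hKO replicates 5 to 8, against 716.4, 620.6, 718.3 and 579.1 in RH2hWT replicates 1 to 4. Replicate 8 again lay among the RH2hWT libraries (log2 fold change 0.41 ± 0.15, SE; limma adjusted p = 0.244, and 0.0139 with array weights). Cd300a, an inhibitory receptor, averaged 2113 ± 205 in RH2hKO and 2345 ± 433 in RH2hWT (SD, n = 4 each; limma adjusted p = 0.681). Cd302, a C-type lectin, averaged 209 ± 70.2 in RH2hKO and 140 ± 13.3 in RH2hWT (log2 fold change 0.52 ± 0.22, SE; limma adjusted p = 0.313). Cd163, the haemoglobin scavenger receptor, averaged 87.9 ± 16.1 in RH2hKO and 68.0 ± 16.8 in RH2hWT. Cd36, Cd101, Cd209a, Cd300c, Cd300e and Cd5l were too low to test.

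None of the 5 tested members listed under complement and phagocytosis control, a list that also holds Cd52, passed the test, with an unadjusted limma p of 0.233 or more. Cd47, which marks cells against uptake by macrophages, averaged 21714 ± 2491 normalised counts in RH2hKO and 20513 ± 615 in RH2hWT (SD, n = 4 each; log2 fold change 0.08, 95% interval -0.10 to 0.25). Cd52, a short glycopeptide of white blood cells, averaged 1930 ± 328 in RH2hKO and 1700 ± 368 in RH2hWT (95% interval -0.14 to 0.53). Cd55, which speeds the decay of complement convertases, had 71.1, 56.5, 94.6 and 290.6 in RH2hKO replicates 5 to 8, against 69.8, 114.3, 88.7 and 91.7 in RH2hWT replicates 1 to 4. Its high value in RH2hKO came from replicate 8 alone (limma adjusted p = 0.891). The near copies Cd55b and Cd59b were too low to test.

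Cd48 and Cd84 of the SLAM family were within the spread. Cd48, the ligand of CD244, averaged 4532 ± 545 in RH2hKO and 4686 ± 554 in RH2hWT (SD, n = 4 each; 95% interval of the log2 fold change -0.26 to 0.16). Cd84, a receptor that binds itself on neighbouring cells, averaged 1716 ± 171 in RH2hKO and 1783 ± 302 in RH2hWT.

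None of 5 tested T and NK cell receptors and none of 3 tested B cell receptors passed the test, and of the 8 only Cd6 had an unadjusted limma p below 0.05. Cd69, a C-type lectin induced on activated lymphocytes, had 2960.1, 2390.4, 2354.3 and 1335.8 in RH2hKO replicates 5 to 8, against 2117.9, 1785.2, 2055.0 and 2217.2 in RH2hWT replicates 1 to 4. Replicates 5 to 7 were above and replicate 8 was below all RH2hWT libraries (log2 fold change 0.09 ± 0.18, SE; limma adjusted p = 0.883). Cd6, a surface receptor of T cells from the scavenger receptor family, had 60.3, 107.1, 80.8 and 192.5 in RH2hKO replicates 5 to 8, against 47.8, 51.0, 47.5 and 37.1 in RH2hWT replicates 1 to 4. All RH2hKO values were above all RH2hWT values, but they spread over a wide range and Cd6 did not pass the test (log2 fold change 1.12 ± 0.32, SE; limma adjusted p = 0.122).

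DESeq2 on the recovered reads called Cd6 (adjusted p = 0.0113), as did limma with array weights (0.0391). Cd244a, the receptor 2B4, averaged 357 ± 139 in RH2hKO and 269 ± 59.8 in RH2hWT (SD, n = 4 each; limma adjusted p = 0.553). Cd3d, Cd247, Cd5, Cd7, Cd160 and Cd226 were too low to test. Cd79b, a signalling chain of the B cell receptor, averaged 1137 ± 103 in RH2hKO and 1065 ± 113 in RH2hWT, while its partner Cd79a did not reach the filter. Cd180, a Toll-like receptor homologue, averaged 740 ± 33.5 in RH2hKO and 729 ± 53.8 in RH2hWT. Cd72, an inhibitory receptor of B cells, averaged 215 ± 30.3 in RH2hKO and 217 ± 25.4 in RH2hWT, and overlaps the more abundant Tesk1 on the opposite strand over 1423 bases.

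Cd74, the chaperone of MHC class II, had 6.3, 7.8, 0.0 and 100.1 normalised counts in RH2hKO replicates 5 to 8, against 12.5, 20.8, 70.0 and 43.5 in RH2hWT replicates 1 to 4. RH2hKO replicate 8 was the highest library and the other RH2hKO libraries were the lowest (log2 fold change -1.79 ± 1.04, SE; limma adjusted p = 0.495). The size depended on the setting: the log2 fold change was -0.34 with edgeR and -0.36 with DESeq2 on the recovered reads, -0.73 without RH2hKO replicate 7 and -2.95 without RH2hKO replicate 8. Cd320, the receptor for vitamin B12 bound to transcobalamin, averaged 1019 ± 85.9 in RH2hKO and 1050 ± 78.8 in RH2hWT (SD, n = 4 each; 95% interval of the log2 fold change -0.25 to 0.16).

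**Figure D3:**
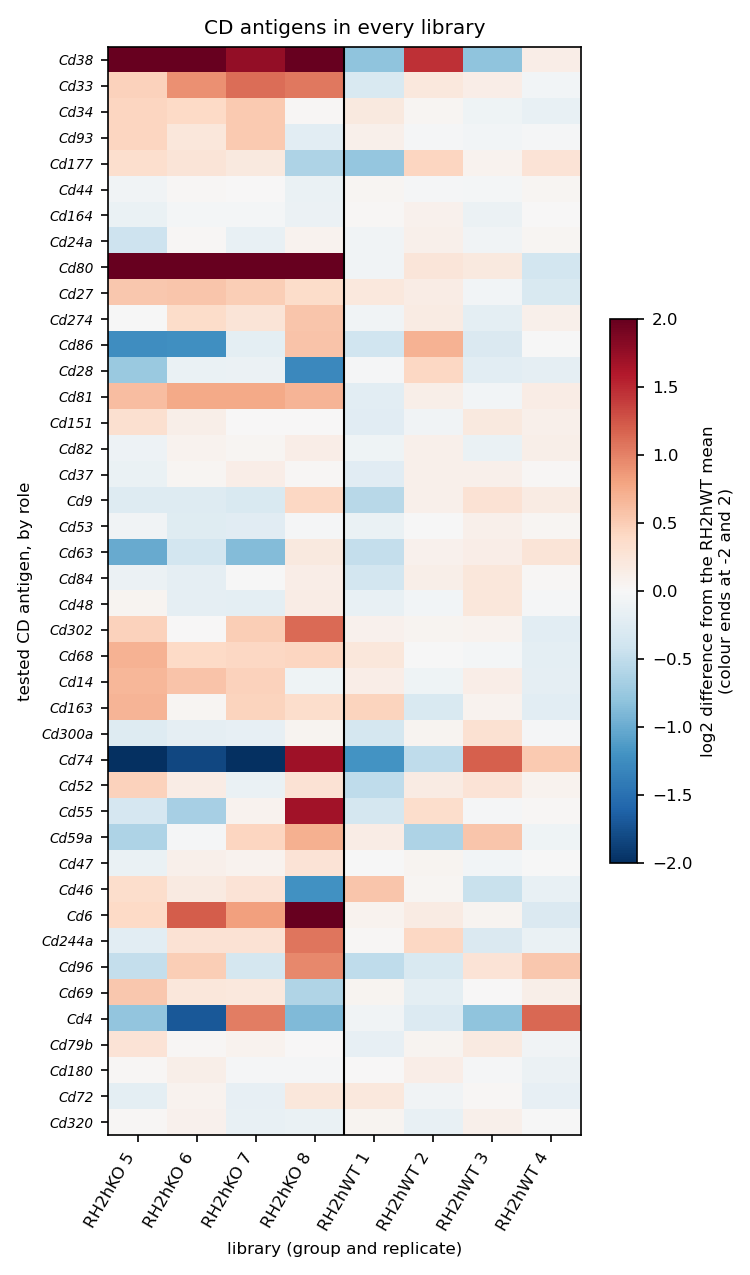
Log2 difference of each tested CD antigen from its RH2hWT mean, in every library, with the colour scale ending at -2 and 2. Cd80, Cd81, Cd27, Cd68 and Cd33 are red in all 4 RH2hKO libraries, while Cd34, Cd93, Cd14, Cd63, Cd74 and Cd55 have another colour in RH2hKO replicate 8 than in replicates 5 and 6.

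Several of these values turned on RH2hKO replicate 8. RH2hKO replicates 5 to 7 lay apart from all RH2hWT libraries for 12 of the 42 tested members, and replicate 8 lay on the same side for 7 of the 12 (58.3%). Both counts include Cd38, which reached the filter only through the RH2hKO libraries. Over all genes tested, replicates 5 to 7 lay apart for 16.2%, and replicate 8 followed for 45.9% of those. The 5 members in which it did not follow were Cd93, Cd34, Cd69, Cd14 and Cd74. It had the highest RH2hKO value for 20 members and the lowest for 11, where replicate 5 had the highest for 10 and the lowest for 16, replicate 6 for 5 and 8, and replicate 7 for 7 and 7. The antigens shown for replicate 8 and the genes Cd9, Cd14, Cd28, Cd55, Cd63, Cd86, Cd163, Cd177 and Cd302 were chosen after their values were seen.

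Without RH2hKO replicate 8, 7 members rose and 1 fell, where 3.41% of all genes were called, 2.05% higher and 1.36% lower. The antigens called were Cd80, Cd81, Cd27 and Cd68 together with Cd34 (log2 fold change 0.45; limma adjusted p = 0.00836), Cd93 (0.39; 0.0156) and Cd14 (0.57; 0.00998), and Cd63 fell (-0.75; 0.0215). Cd33 was not called without replicate 8 (limma adjusted p = 0.0518). With RH2hKO replicate 8 and RH2hWT replicate 1 both left out, 7 members rose and 4 fell (Cd300a, Cd63, Cd74 and Cd9), where 8.62% of all genes were called. Of the 16710 genes tested in that setting, 651 were called higher and 789 lower. With replicate 8 left out, all RH2hKO libraries precede all RH2hWT libraries in the sample numbering, so that genotype and numbering cannot be told apart.

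Several marker lists of other cells had an extreme summed level in RH2hKO replicate 8, and single genes of them differed between the groups. The summed level of 6 mast cell and basophil markers was 15198 in replicate 8, 4604 to 6831 in the other RH2hKO libraries and 6707 to 8975 in RH2hWT. Cpa3 (4275.0), Ms4a2 (3290.5), Mcpt8 (3212.5), Fcer1a (2524.4) and Gata2 (1884.4) were each highest of all libraries in replicate 8. Gzmb of that list ran the other way there, at 11.5, the lowest of all libraries. Between the groups Gzmb fell, averaging 33.9 ± 17.8 in RH2hKO and 187 ± 24.6 in RH2hWT (SD, n = 4 each; limma adjusted p = 0.00161). For 4 eosinophil markers the summed level was 20344 in replicate 8, 4318 to 8556 in the other RH2hKO libraries and 16161 to 29473 in RH2hWT. Replicate 8 lay within the RH2hWT range and the other RH2hKO libraries below it. Most of the eosinophil sum was Prg2, at 16428.3 in replicate 8. Of these markers, Ear1 fell, averaging 33.9 ± 8.03 in RH2hKO and 167 ± 25.9 in RH2hWT (limma adjusted p = 8.21e-05), as did Ear2, averaging 52.2 ± 36.4 in RH2hKO and 214 ± 51.9 in RH2hWT (limma adjusted p = 0.0407). In replicate 8 Prg2 and Epx lay within the RH2hWT range, but Ear1 (45.2) and Ear2 (93.4) lay below every RH2hWT library (lowest 144.2 and 170.5). The 8 megakaryocyte and erythroid markers summed to 2381 in replicate 8, 1002 to 1368 in the other RH2hKO libraries and 1075 to 1420 in RH2hWT. Most of that sum was Itga2b, at 2144.3 in replicate 8, 911.1 to 1242.9 in the other RH2hKO libraries and 973.8 to 1311.1 in RH2hWT. Maturing neutrophil markers summed to 1688 in replicate 8, 1019 to 1151 in the other RH2hKO libraries and 778 to 1393 in RH2hWT. Lcn2 made most of the sum in replicate 8, at 1309.8 there, 576.2 to 706.6 in the other RH2hKO libraries and 459.7 to 551.3 in RH2hWT. Mmp8 stood at 181.9 in replicate 8, 145.8 to 178.4 in the other RH2hKO libraries and 101.2 to 149.2 in RH2hWT. Ngp (42.3) and Ltf (7.7) were also highest of RH2hKO in replicate 8. Ngp lay there within the RH2hWT range (29.8 to 157.7), and Ltf lay below every RH2hWT library (lowest 8.6). Cd177 was lowest of RH2hKO in replicate 8 (145.3), and Camp stood at 1.0. The dendritic cell list, which holds Cd74, was lowest in replicate 8 (21188, against 24026 to 29787 in the other RH2hKO libraries and 22345 to 28919 in RH2hWT), while H2-Aa, a class II gene of that list, was highest there at 159.8. Most of the dendritic cell sum was Irf8, at 13155.2 in replicate 8. The 7 T and NK cell markers in the table, nearly all of whose level is Nkg7, summed to 12880 in replicate 8, 9064 to 10987 in the other RH2hKO libraries and 9646 to 14449 in RH2hWT. The 5 B cell markers summed to 4928 in replicate 8, 6699 to 8551 in the other RH2hKO libraries and 7491 to 8736 in RH2hWT. Most of the B cell sum was Ighm, at 3797.7 in replicate 8, 5524.4 to 7252.7 in the other RH2hKO libraries and 6337.4 to 7661.8 in RH2hWT. The part of these cells in the values of Cd34, Cd93, Cd14, Cd63, Cd55, Cd9 and Cd74 was not tested. For Cd80 and Cd81 the log2 fold changes were 2.47 and 0.71 without replicate 8, against 2.51 and 0.70 with it.

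**Figure D4:**
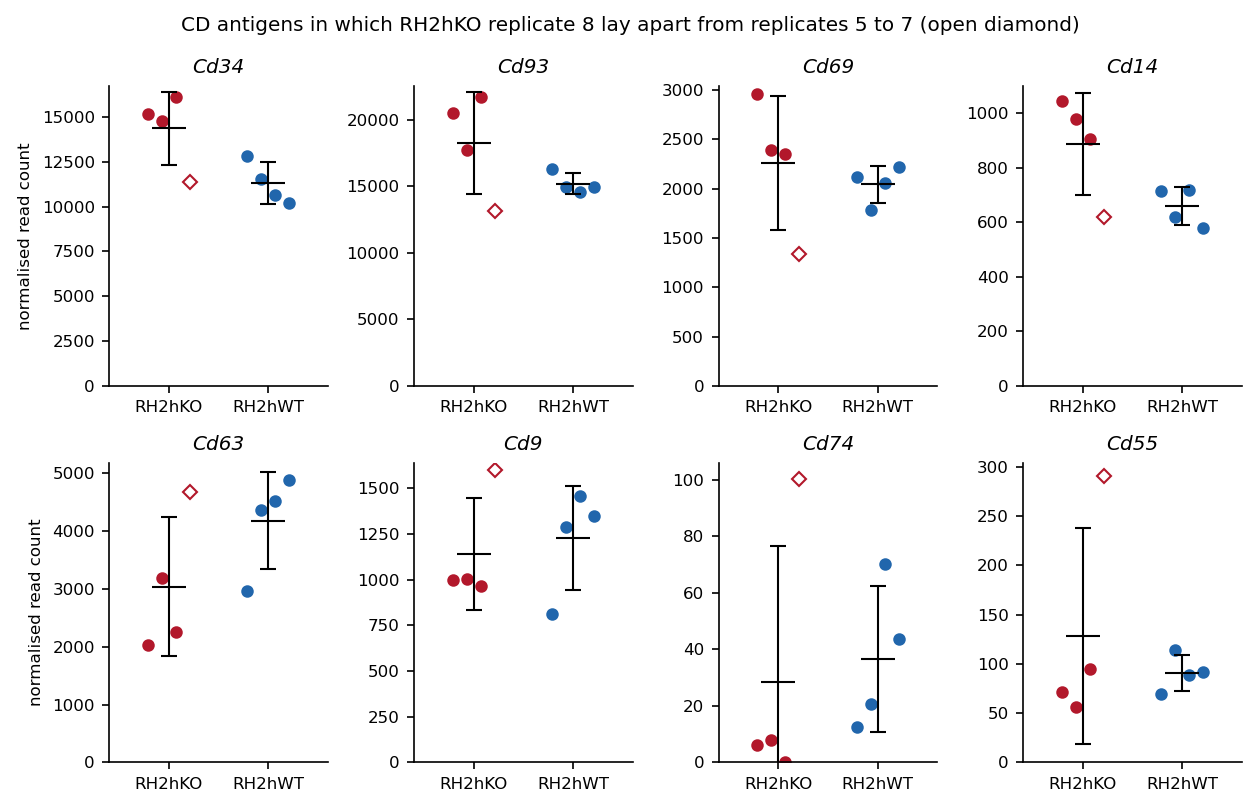
Normalised counts per library of 8 CD antigens in which RH2hKO replicate 8 (open diamond) lay apart from RH2hKO replicates 5 to 7, with RH2hKO left and RH2hWT right and bars for mean ± SD (n = 4 each). The diamond lies below the other RH2hKO points for Cd34, Cd93, Cd69 and Cd14 and above them for Cd63, Cd9, Cd74 and Cd55.

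Per kilobase of gene length, the CD antigens covered a wide range of levels. Over all libraries Cd53 was highest, at 4296 ± 321 normalised counts per kilobase in RH2hKO and 4741 ± 313 in RH2hWT (SD, n = 4 each). Cd48 followed at 3812 ± 458 in RH2hKO and 3941 ± 466 in RH2hWT, and Cd47 at 3460 ± 397 in RH2hKO and 3268 ± 98.0 in RH2hWT. Cd24a came next over all libraries, at 3182 ± 461 in RH2hKO and 3425 ± 202 in RH2hWT, where it was above Cd47. Cd164 and Cd93 followed, with Cd93 above Cd164 in the RH2hKO mean and below it in the RH2hWT mean. Cd48 and Cd47, and Cd47 and Cd24a, overlapped within their SD in RH2hKO, while Cd164, at 2489 ± 89.6 in RH2hKO and 2631 ± 155 in RH2hWT, lay below Cd24a by more than their SDs together.

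Cd34 stood at 1969 ± 282 per kilobase in RH2hKO and 1550 ± 160 in RH2hWT, followed by Cd52 and Cd44. Cd81 ranked 10 over all libraries, at 1421 ± 66.2 per kilobase in RH2hKO and 876.8 ± 99.1 in RH2hWT. In RH2hKO its mean was above that of Cd44, and in RH2hWT below that of Cd37. Cd80 was low on this scale, at 33.4 ± 5.48 per kilobase in RH2hKO and 5.65 ± 1.09 in RH2hWT, so its rise was large in relative terms and small in amount. Summed over the 62 members, normalised counts were 126241 ± 2670 in RH2hKO and 119102 ± 2300 in RH2hWT (SD, n = 4 each), of which the 5 members with the most counts held 59.1% in RH2hKO and 57.3% in RH2hWT.

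**Figure D5:**
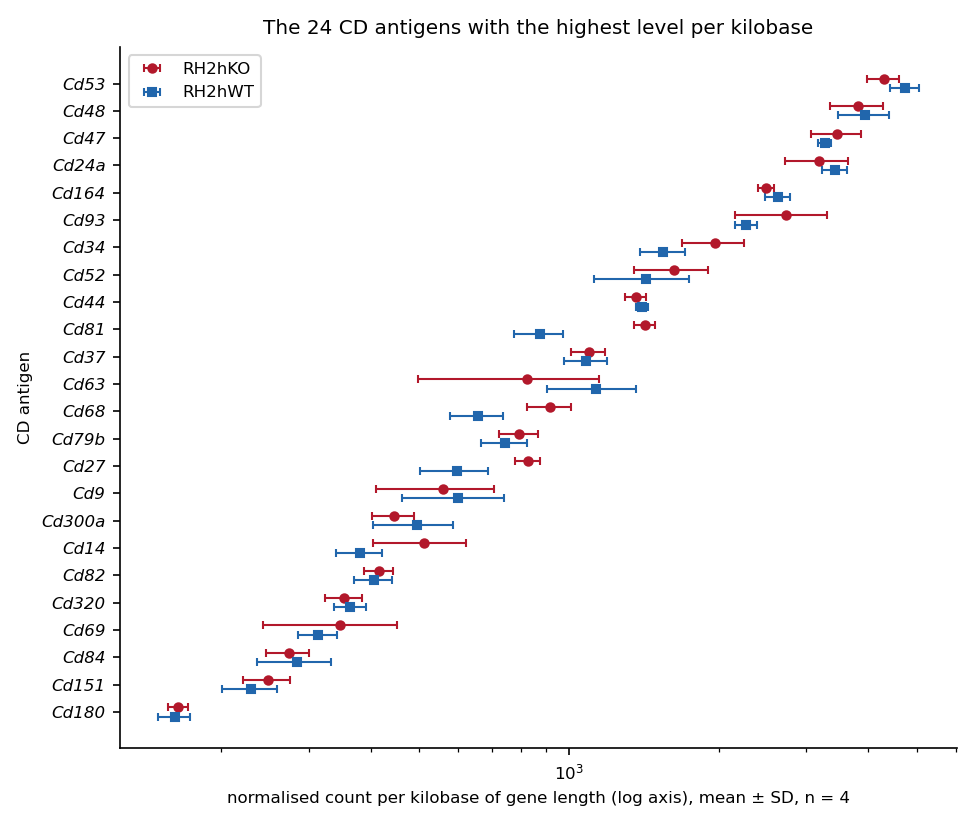
Level per kilobase of gene length (log axis) of the 24 most abundant CD antigens, mean ± SD with n = 4 per group. The groups lie close together for most antigens, and RH2hKO lies clear of RH2hWT for Cd81, Cd68 and Cd27.

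CD molecules whose mouse gene has another kind of symbol were counted for comparison, from a list of 98 in the table that was chosen with earlier results of these data known. Of 87 tested, 10 rose and 1 fell, with a median log2 fold change of 0.12. Over all genes tested 1.40% were called, 1.19% higher and 0.210% lower. Eng, the TGF-beta co-receptor endoglin (CD105), averaged 1963 ± 144 in RH2hKO and 1081 ± 116 in RH2hWT (SD, n = 4 each; log2 fold change 0.86 ± 0.10, SE; limma adjusted p = 0.000137). It overlaps Fpgs on the opposite strand over 61 bases. Icam1 (CD54), an adhesion ligand of leukocyte integrins, averaged 1103 ± 110 in RH2hKO and 624 ± 90.2 in RH2hWT (log2 fold change 0.83 ± 0.12, SE; limma adjusted p = 0.00145). Tnfrsf10b (CD262), a death receptor of the TNF family, averaged 305 ± 41.2 in RH2hKO and 82.0 ± 26.5 in RH2hWT (log2 fold change 1.94 ± 0.23, SE; limma adjusted p = 0.000325). These changes were called under all 21 alternatives, as were those of Selp and Tnfsf4. Selp averaged 1001 ± 151 in RH2hKO and 150 ± 73 in RH2hWT (log2 fold change 2.84 ± 0.26, SE; limma adjusted p = 2.76e-05). Tnfsf4, counted among the 10, averaged 233 ± 39.3 in RH2hKO, with 980 reads there and 6 in RH2hWT. It reached the filter only through the RH2hKO libraries, so the size of its rise is uncertain.

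Pecam1 (CD31), an adhesion molecule, averaged 4908 ± 346 in RH2hKO and 3786 ± 332 in RH2hWT (limma adjusted p = 0.0324). Sdc1 (CD138), a heparan sulfate proteoglycan, averaged 177 ± 27.4 in RH2hKO and 70.5 ± 33.4 in RH2hWT (limma adjusted p = 0.0235). Both calls were lost when any 1 of several libraries was left out, and with no intensity trend. Pecam1 was not called without RH2hKO replicate 5, 6 or 7 or RH2hWT replicate 2, 3 or 4 (limma adjusted p 0.0568 to 0.151), nor Sdc1 without RH2hKO replicate 5, 6 or 7 or RH2hWT replicate 2 or 3 (0.0503 to 0.0775). Bst2, Ccr2 and Flt3 also rose and Ncam1 fell, and these calls too were lost with no intensity trend. Ccr2 was not called without RH2hKO replicate 5 or 7 or RH2hWT replicate 3 or 4 (limma adjusted p 0.0617 to 0.0991), nor Flt3 without RH2hKO replicate 7 (0.0503).

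Of the other antigens used in the sort, Kit averaged 9924 ± 719 in RH2hKO and 9459 ± 175 in RH2hWT (SD, n = 4 each; limma adjusted p = 0.738). For CD16/32, Fcgr3 averaged 9616 ± 1097 in RH2hKO and 12236 ± 2191 in RH2hWT (log2 fold change -0.34 ± 0.12, SE; limma adjusted p = 0.233). Fcgr3 was called lower without RH2hWT replicate 1 (log2 fold change -0.46; limma adjusted p = 0.0238), with array weights (-0.45; 0.0177) and without RH2hKO replicate 8 and RH2hWT replicate 1 together (-0.54; 0.000786). Fcgr2b averaged 3972 ± 298 in RH2hKO and 4038 ± 296 in RH2hWT (limma adjusted p = 0.936).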

How the data were processed

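GMP were sorted from lineage-negative marrow of RH2hKO and RH2hWT littermates, and strand-specific poly(A) libraries were read from both fragment ends, per the labels' protocols. Per the submitters' processing notes, reads went through FastQC, GSNAP, featureCounts 2.0.1 and DESeq2 1.30.1 with R 3.5.1, on mm10. No source used here gives the strand setting of the counting or the annotation release, so overlapping genes on opposite strands may share reads. All 160 CD genes described, members and others, had the start and end of GENCODE M21.

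The deposited values are a signal: read counts per gene that the authors scaled by a single factor for each library and gave with 1 decimal. Of 169267 values above 0, 99.997% came out as whole reads (within 0.051 normalised counts) and 5 did not, which gave the depths. PCR copies are not independent molecules, so read totals speak of counting error alone.

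Groups came from the labels, which name separate mice. Within a group, pairs of libraries differed beyond sampling noise, with a chi-square per degree of freedom of 14 to 45.6, so each counted as 1 sample. The test was limma 3.58.1 (R 4.3.3), with an intensity trend, on log2(normalised count + 1). It covered genes with a mean of at least 10, with Benjamini-Hochberg adjustment over all of them and a threshold of 0.05. Fold changes of low genes depend on the pseudocount and on the log scale. Alternatives were other pseudocounts (0.5, 5), dropping the filter or raising it to 50, TMM scaling, quantile normalisation, equal totals, array weights, no intensity trend, protein-coding genes alone, and leaving out each library or RH2hKO replicate 8 with RH2hWT replicate 1. They also included the quasi-likelihood test of edgeR 4.0.16 and DESeq2 1.42.0, both on recovered reads, where edgeR called 210 genes higher and 31 lower and DESeq2 420 and 138.

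Members, role lists and marker lists were chosen with earlier results of these data known. Named were members that were called or whose groups did not overlap, Cd34, the 2 most abundant of each role and the 10 highest per kilobase, and of the other CD antigens those called and those of the sort gate. Any others were named after their values were seen. Promoter sequences are from RefSeq, GRCm38.p6.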

Additional observations from a re-analysis of the deposited data

Results flagged for a closer look

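In 7 of the 84 groups of 4 libraries examined, 1 library lay far from the others: its gap to the nearest library, as a share of the group's range, passed Dixon's 95% limit. Chance gives about 1 in 20 such groups. Cd80 stood at 93.4 normalised counts in RH2hKO replicate 6, against 132.8 to 135.0 in the other RH2hKO libraries. Cd68 stood at 1327.0 in RH2hKO replicate 5, against 1082.3 to 1112.5 in the others. Cd9 stood at 1601.5 in RH2hKO replicate 8, against 965.2 to 1005.4 in the others. Cd55 stood at 290.6 in RH2hKO replicate 8, against 56.5 to 94.6 in the others, and Cd74 at 100.1 in replicate 8, against 0.0 to 7.8. Cd4 stood at 24.6 in RH2hKO replicate 7, against 2.9 to 6.3 in the others. In RH2hWT, Cd302 stood at 120.5 in replicate 4, against 145.5 to 148.1 in the other RH2hWT libraries.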

How the results depend on the processing

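Cd80 and Cd81 kept their calls under all 21 alternatives. The count of 5 risen CD antigens became 2 with no intensity trend, 9 with array weights and 8 with DESeq2, and ranged from 2 to 7 with 1 library left out. Cd38, which reached the filter only through the RH2hKO libraries, was among the 9 and the 8. The count of 0 that fell became 1 with array weights and 4 without RH2hKO replicate 8 and RH2hWT replicate 1 together, and ranged from 0 to 1 with 1 library left out. Of the other CD antigens, the 10 that rose became 5 with no intensity trend (6 to 12 with 1 library left out). The 1 that fell became 0 with no intensity trend, 3 with array weights and 6 without RH2hKO replicate 8 and RH2hWT replicate 1 together (1 to 3 with 1 library left out). The causes were not tested. Over all genes, no intensity trend gave 93 higher and 11 lower, array weights 547 and 454, and DESeq2 420 and 138. Leaving out RH2hKO replicate 8 and RH2hWT replicate 1 together gave 651 higher and 789 lower.

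The log2 fold change of 15 of the 56 genes followed turned its sign at least once, in no case with a call on either side. Without RH2hKO replicate 8 and RH2hWT replicate 1 together it was -0.0592 for Cd37, -0.0052 for Cd52, -0.027 for Cd82, 0.0081 for Cd320, -0.42 for Cd55, -0.024 for Cd59a, -0.28 for Cd96 and 0.46 for Cd46. With array weights it was -0.0196 for Cd82, -0.18 for Cd55, -0.056 for Cd96, 0.15 for Cd46 and 0.0047 for Cd72. At equal totals it was 0.016 for Cd72 and 0.012 for Fcgr2b. With 1 library left out it ranged from -0.11 to 0.029 for Cd48, -0.0561 to 0.0699 for Cd37, -0.056 to 0.33 for Cd69, -0.17 to 0.032 for Cd84, -0.0104 to 0.0783 for Cd82, -0.017 to 0.069 for Cd180, -0.21 to 0.27 for Cd177, -0.0994 to 0.0536 for Cd72, -0.31 to 0.48 for Cd55, -0.079 to 0.37 for Cd59a, -0.11 to 0.37 for Cd96, -0.25 to 0.27 for Cd46 and -0.0747 to 0.0145 for Fcgr2b.

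Cd96, Cd74, Cd86, Cd46, Cd4 and Cd38 gave no value with a mean of at least 50, and Cd4 and Cd38 none in some leave-outs. No paired analysis was possible because the replicate numbers of the groups, 5 to 8 in RH2hKO and 1 to 4 in RH2hWT, are not shared. The 20 untested members had few reads in any library, and whether depth or low expression limits them was not tested.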
